A study of Mus musculus with 12 samples.

Results

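The 38 autosomal genes described here were close to silent in untreated wild-type (WT) mouse hearts and carried reads in every untreated Ptcd1 knockout (KO) heart library. They were chosen on deposited read counts: at most 3 counts summed over the 3 untreated WT libraries and at least 30 over the 3 untreated KO libraries, on any chromosome but X, Y and the mitochondrial one. Of 51911 genes in the table, 43 met these limits. Gdf15, Fgf21, Adm2, Ostn and Slc7a11, stress hormones and transporters that met them too, were left out, and so was the X-linked Slc7a3. Because untreated counts selected the genes, their untreated values are given as a description without a test, and CMC-treated libraries, which played no part in the choice, give a second measurement.

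PTCD1 is a pentatricopeptide repeat protein of mitochondria that is needed for the mitochondrial 16S ribosomal RNA. The 12 libraries hold total heart RNA depleted of cytoplasmic ribosomal RNA, in 4 groups of 3: KO untreated, WT untreated, KO treated with CMC and WT treated with CMC. CMC is a carbodiimide that attaches to RNA at pseudouridine, so it acts on the RNA and not on the animal. The labels name the genotype as a PTCD1 knockout but do not give the allele, the Cre driver if any, the strain, age or sex, or whether hearts were pooled. They do not say whether replicates are separate animals, nor whether untreated and CMC libraries of the same number come from the same RNA, so p-values measure the spread between these libraries, which may be technical.

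Libraries held 10389398 to 12462093 counts, of which 70.5% to 75.4% were mitochondrial, and 2683284 to 3187748 nuclear counts set the precision for the genes below. Ptcd1 itself had 28, 17 and 19 counts in untreated KO and 78, 71 and 74 in untreated WT libraries, and 20 to 23 against 74 to 103 after CMC. Xist, the RNA of the inactive X chromosome, had 1298, 851 and 871 counts in untreated KO libraries against 0, 1 and 0 in WT, and 738, 485 and 584 against 0, 1 and 2 after CMC. The Y-linked Ddx3y was present in all libraries, with 290, 328 and 341 counts in untreated KO and 417, 379 and 408 in WT, and 280 to 294 against 335 to 399 after CMC. Each KO library thus held Xist and Y-linked transcripts while WT libraries held Y-linked transcripts with at most 2 Xist counts. The makeup of the libraries by sex and the genotype cannot be told apart in any comparison below. Cardiomyocyte markers were present in every library, and their sum over 6 genes was 34397 to 34777 per 1000000 nuclear counts in untreated KO against 66371 to 68452 in WT, and 37460 to 38171 against 66628 to 71688 after CMC. In bulk RNA, fewer cells of a type and less RNA per cell cannot be told apart.

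A gene with almost no reads in one tissue is often active elsewhere: Vmn2r3 is known from the vomeronasal organ, Soat2 from liver and intestine, Cdsn from skin and Mei4 from meiosis. Hearts that lack mitochondrial gene expression are known to turn on the integrated stress response, in which ATF4 and its partners bind C/EBP-ATF response elements near amino acid, folate and hormone genes. Oxidative and protein folding stress act through other factors, NRF2 at antioxidant response elements and HSF1 at heat shock elements.

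By annotation 30 of the 38 were protein coding, 2 were antisense RNAs, 2 were lincRNAs, 2 were processed pseudogenes, 1 was a processed transcript and 1 was of the class TEC, which awaits experimental proof. They lay on 18 chromosomes, with at most 5 on a single one, chromosome 2. Promoter sequences from RefSeq (mouse GRCm38.p6, the assembly of mm10; 250 bases before to 50 after the start) were matched for 23 of the 38, in 26 windows. The 15 without one include Gm7901, Gm38575, Gm43752, Ido1, Soat2, Tbx15, Gm44317, Ereg, Gdf6, B230206I08Rik, Arhgdig and 5830418P13Rik. The 4 windows below belong to genes with large KO counts and show, on the strand of the gene, where a searched motif or a shared start region lies.

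For 4930438A08Rik (chr11:58274578-58274877, plus strand) capitals mark a C/EBP-ATF response element, TGATGCAA, read on the opposite strand at 33 to 26 bases before the start. For Acox2 (chr14:8258970-8259269, minus strand) capitals mark an antioxidant response element, TGACNNNGC, on the opposite strand at 13 to 5 bases before the start. Acox2 has another annotated start, and the same element lies 193 to 185 bases before that one. For Sh2d6 (chr6:72519987-72520286, minus strand) capitals mark 2 such elements, 1 on the strand of the gene and 1 on the opposite strand. For Fam227b (chr2:126151955-126152254, minus strand) capitals mark the 136 bases between its start and that of Dtwd1, which is transcribed the other way.
4930438A08Rik: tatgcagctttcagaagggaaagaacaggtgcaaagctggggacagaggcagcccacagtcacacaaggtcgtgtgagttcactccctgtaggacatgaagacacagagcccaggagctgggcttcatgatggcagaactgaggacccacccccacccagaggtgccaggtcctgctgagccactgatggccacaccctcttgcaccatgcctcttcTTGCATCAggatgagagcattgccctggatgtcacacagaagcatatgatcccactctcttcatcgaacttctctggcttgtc
Acox2: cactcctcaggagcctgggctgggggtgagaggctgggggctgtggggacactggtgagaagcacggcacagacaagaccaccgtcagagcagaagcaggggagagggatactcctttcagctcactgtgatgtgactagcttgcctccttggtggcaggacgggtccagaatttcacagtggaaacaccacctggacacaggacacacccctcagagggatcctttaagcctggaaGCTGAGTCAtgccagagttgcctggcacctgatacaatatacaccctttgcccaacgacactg
Sh2d6: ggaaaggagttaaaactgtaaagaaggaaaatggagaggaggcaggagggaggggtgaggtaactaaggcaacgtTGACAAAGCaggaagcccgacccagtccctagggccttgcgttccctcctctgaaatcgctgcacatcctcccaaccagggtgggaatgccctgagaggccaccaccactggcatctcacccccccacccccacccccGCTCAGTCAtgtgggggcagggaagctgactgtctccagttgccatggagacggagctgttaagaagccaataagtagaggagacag
Fam227b: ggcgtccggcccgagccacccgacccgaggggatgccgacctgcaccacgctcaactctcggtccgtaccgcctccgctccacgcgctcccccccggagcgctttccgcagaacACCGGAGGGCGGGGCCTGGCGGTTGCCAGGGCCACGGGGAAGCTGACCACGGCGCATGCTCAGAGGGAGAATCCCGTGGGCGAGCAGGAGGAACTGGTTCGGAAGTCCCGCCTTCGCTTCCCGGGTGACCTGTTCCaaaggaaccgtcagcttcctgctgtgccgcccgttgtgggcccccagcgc

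Each motif was searched on both strands of the windows of all 27025 genes with a RefSeq promoter. TGATGNAA, which contains the exact core TGATGCAA, was found at 2 of 23 genes here, 4930438A08Rik and Cyb5r2 (8.70%), against 4.51% of all genes, and the exact core at 1 of 23 (4.35%) against 1.03%. TGACNNNGC was found at 3 of 23, Acox2, Sh2d6 and Tmem252 (13.0%), against 14.0% of all. The heat shock element core GAANNTTC was found at Cyb5r2 (4.35%) against 9.04%, and the cAMP response element TGACGTCA at 0 of 23 against 2.03%. Most of these promoters held none of the searched letters. A match is a run of letters in the window, and it does not show that a factor binds there.

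In untreated hearts the 38 genes together had 1412, 1429 and 1435 counts in the KO libraries and 15, 18 and 21 in the WT libraries, or 0.0469% against 0.000601% of nuclear counts. In WT, 14 of them were at 0 over all 3 libraries, 5 at 1 count, 8 at 2 and 11 at 3. In KO their sums ran from 30 to 948 with a median of 55. The rule was met by 0.195% of the 22094 autosomal genes with a count, every KO library exceeded every WT library for 23.2% of those genes, and edgeR called 29.2% of 12228 tested genes higher in untreated KO; nothing is read from these shares for genes chosen on the same libraries. Counted per length, the coding genes among them stood above 42.4% (Adgrv1) to 95.7% (Vmn2r3) of nuclear protein-coding genes in untreated KO. The median was 60.7%. This ranking includes genes without reads, above which the rule itself placed the 38.

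**Figure D1:**
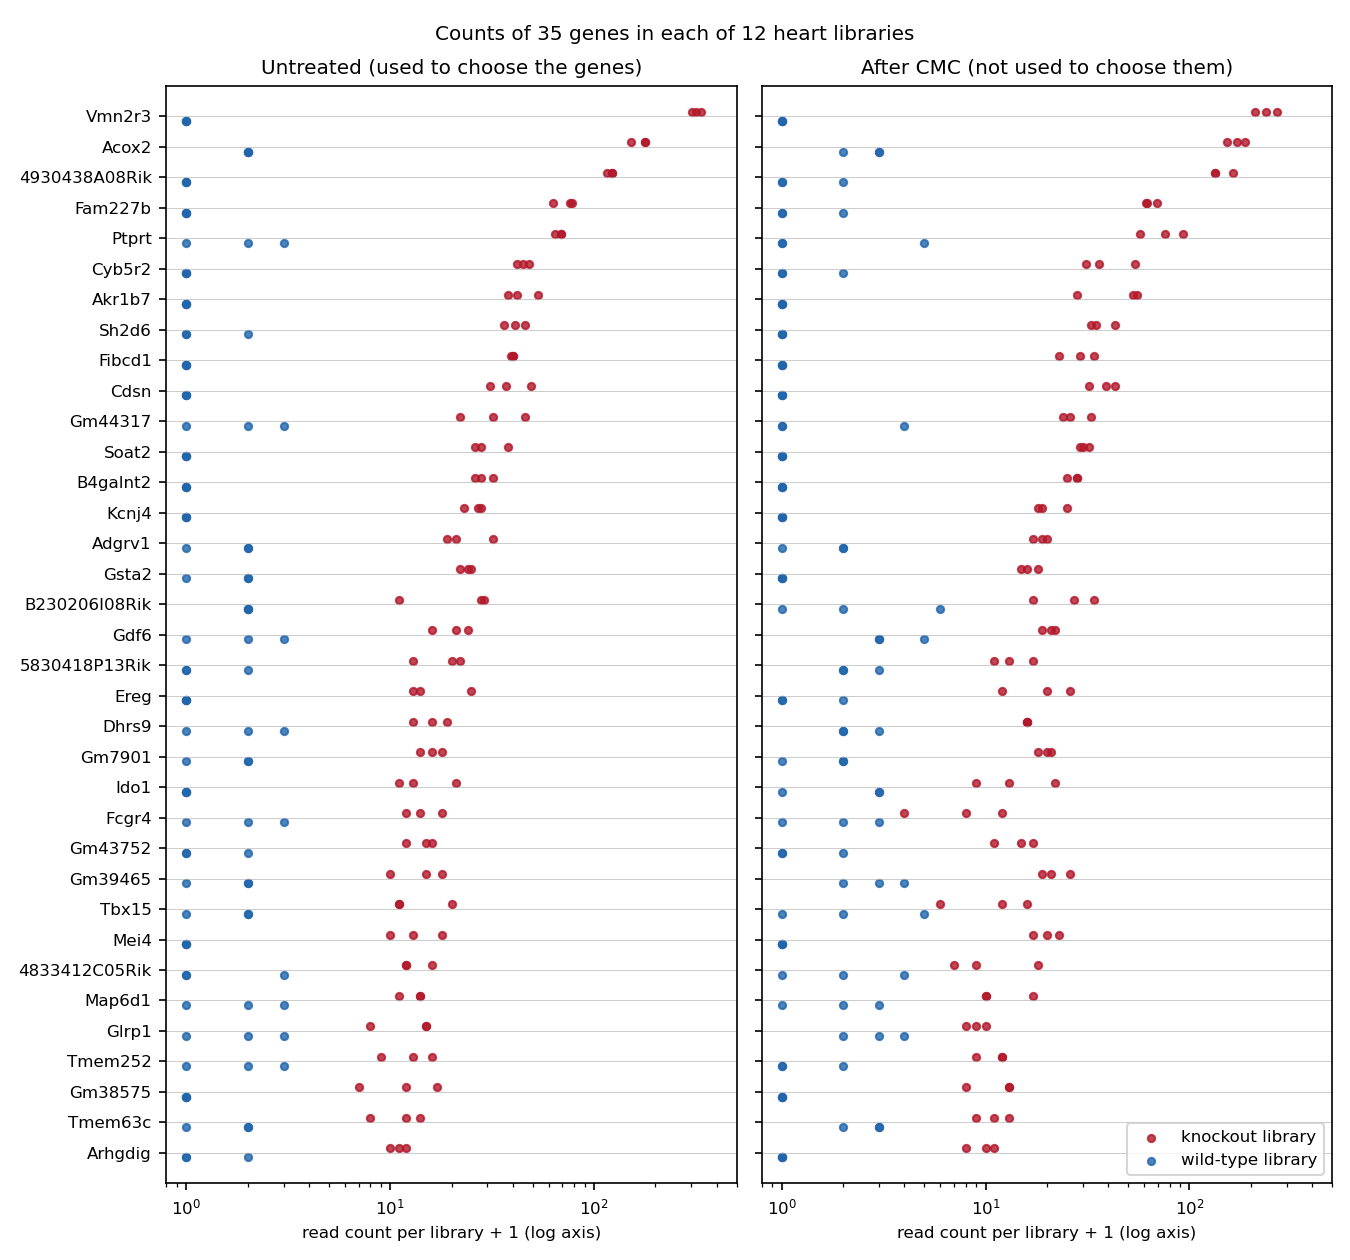
Counts of 35 of the 38 genes in each of the 12 libraries, on a log axis of read counts plus 1; each point is 1 library, coloured by genotype, with untreated and CMC libraries shown apart. KO points lie above WT points for each gene, with WT libraries at no more than 2 counts untreated and no more than 5 after CMC.

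The CMC libraries gave the same genes a second reading. There they had 1410, 1324 and 1207 counts together in KO and 31, 23 and 36 in WT. Every KO library exceeded every WT library, in counts per 1000000 nuclear counts, for 38 of 38, against 21.0% of the 22348 autosomal genes with a count. The limits of the rule were met again by 23 of 38, against 0.161% of autosomal genes. Of the 15 others, 12 had more than 3 counts in WT, Arhgdig and Fcgr4 had fewer than 30 in KO, and Glrp1 missed both limits. Over WT, 12 genes were at 0 after CMC and 9 were at 0 in both treatments, while the highest WT sum was 8 counts, of Gdf6.

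The filter on low counts kept 25 of the 38 in the CMC comparison, and edgeR's quasi-likelihood test called 25 of these 25 higher in KO at a Benjamini-Hochberg adjusted p under 0.05, against 27.1% of 12144 tested genes called higher. A gene at almost 0 in WT passes that filter through its KO counts, so the 25 had to differ, and their number and the adjusted p-values printed for them below are a description. The 13 that were not tested had 21 to 41 counts over KO after CMC, and they include Fcgr4, Tbx15, Glrp1 and Arhgdig. Scaled to nuclear counts, the ratio of KO after CMC to KO untreated ran from 0.546 (Fcgr4) to 1.68 (Gm39465) with a median of 1.002, with 21 genes above 1 and 17 below.

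**Figure D2:**
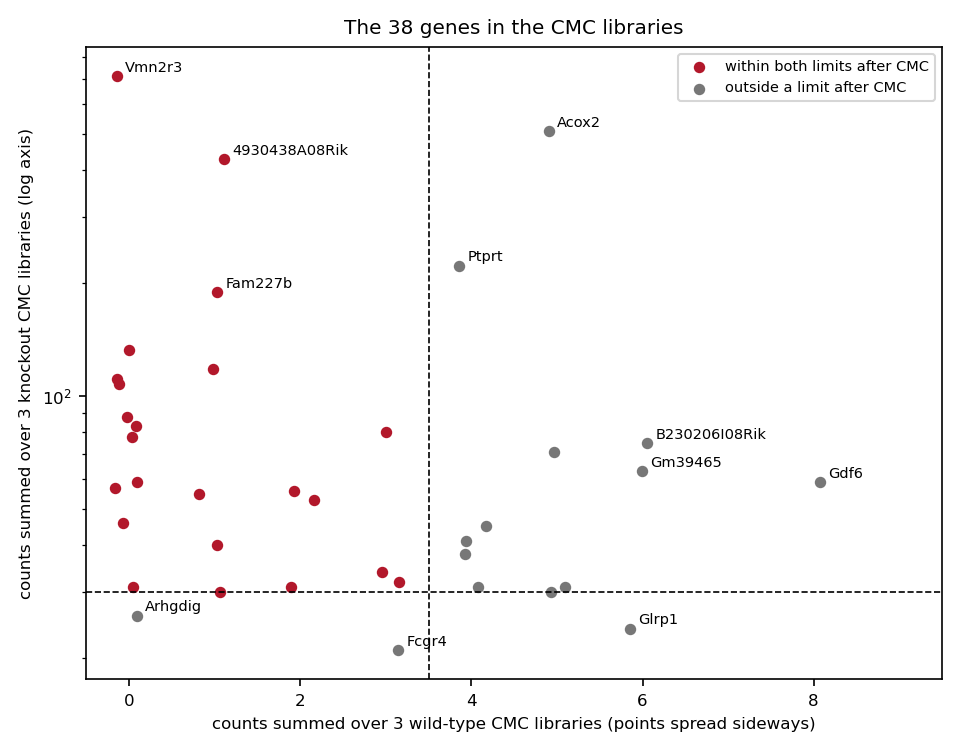
Summed counts over the 3 KO libraries against summed counts over the 3 WT libraries after CMC, with points spread slightly sideways, KO on a log axis and dashed lines for the limits of the rule (the WT line lies between 3 and 4 counts). Of the 38 genes, 23 fall again within both limits, and the others have 4 to 8 counts over WT or 21 to 26 over KO.

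Receptors and other surface proteins held the most abundant of these genes. Vmn2r3, a vomeronasal pheromone receptor gene (mm10 chr3:64258961-64287495, minus strand), had 314, 301 and 333 counts in untreated KO and 0 in each WT library. After CMC it had 269, 237 and 209 against 0, 0 and 0. No WT library of either treatment held a single count. The WT sum of 0 sets a floor of 3 counts over the group, against which the KO level was at least 311-fold higher untreated and at least 258-fold higher after CMC (adjusted p = 9.38e-21, edgeR). At 104 ± 5.77 counts per 1000000 nuclear counts (SD, n = 3) in untreated KO, it stood above 95.7% of protein-coding genes per length, genes without reads included. The other 515 vomeronasal receptor genes and pseudogenes had 16 counts in untreated KO and 21 in WT together, and 20 and 28 after CMC. None of those others passed 4 counts over untreated KO or 7 after CMC. Reads shared between near-identical family members could not be resolved here.

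Ptprt, a receptor tyrosine phosphatase best known from brain, had 63, 68 and 68 counts in untreated KO against 0, 2 and 1 in WT. After CMC it had 92, 75 and 56 against 0, 0 and 4, a ratio of 60.4 (95% counting interval 23.2 to 223, adjusted p = 5.67e-13, edgeR). All 4 of its WT counts came from replicate 3, and the fitted log2 difference of 5.70 became 9.24 without that library. Fibcd1, a receptor that binds chitin and other acetylated structures, had 39, 39 and 38 counts against 0 in each WT library, and 33, 28 and 22 against 0, 0 and 0 after CMC, at least 29.95-fold higher (adjusted p = 2.22e-10, edgeR). Both genes had no WT library above 4 counts. Of the closest relatives of Ptprt, Ptprk rose by 0.52 after CMC while Ptprm differed by 0.02 with an adjusted p of 0.842.

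Adgrv1, a very large adhesion receptor of hair cells and photoreceptors, had 31, 20 and 18 counts in untreated KO against 1, 0 and 1 in WT, and 19, 18 and 16 against 1, 1 and 0 after CMC. Its CMC ratio of KO to WT was 28.7 with a 95% counting interval from 7.56 to 243 (adjusted p = 2.49e-08, edgeR). The interval, like all those below, is an exact conditional binomial one and covers counting error alone.

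Fcgr4, an activating receptor for IgG on myeloid cells, had 17, 11 and 13 counts in untreated KO against 0, 1 and 2 in WT, and 7, 3 and 11 against 2, 0 and 1 after CMC. Its groups were the closest of those described so far, with the lowest KO library at 3 counts and the highest WT library at 2. Its CMC ratio was 7.58 (95% counting interval 2.26 to 39.7), and it did not pass the filter. Fcgr3 rose by 0.76 after CMC (SE 0.17, adjusted p = 0.00033), and Fcgr2b differed by 0.41 with an adjusted p of 0.158. Macrophage markers, 5 of 5 of which were detected, summed to 250 to 261 per 1000000 nuclear counts in untreated KO against 190 to 196 in WT, and 240 to 250 against 194 to 206 after CMC, where 2 of the 5 were called higher and 0 lower. Neutrophil markers summed to at most 3.99 per 1000000 in any library. The part of these cells in the Fcgr4 counts was not tested.

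Among the enzymes of lipid, aldehyde and xenobiotic metabolism, Acox2, the peroxisomal oxidase of branched-chain fatty acids and bile acid intermediates (mm10 chr14:8225511-8259353, minus strand), had 150, 177 and 176 counts in untreated KO against 1 in each WT library. After CMC it had 186, 171 and 151 against 2, 1 and 2, a log2 difference of 6.59 (SE 0.25, adjusted p = 8.39e-20, edgeR). No WT library held more than 2 counts and no KO library fewer than 150. Its relative Acox3 differed by 0.12 on the log2 scale after CMC with an adjusted p of 0.436. The antioxidant response element printed in its promoter is a motif that 14.0% of all genes carry.

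Soat2, which esterifies cholesterol in liver and intestine, had 25, 37 and 27 counts in untreated KO and 29, 28 and 31 after CMC, with 0 in all 6 WT libraries. The CMC level was at least 31.8-fold higher (adjusted p = 1.13e-10, edgeR). Soat1, the form found in most tissues, rose by 0.69 (SE 0.17, adjusted p = 0.00083), while Dgat2, which makes triglycerides, fell by 1.46. Akr1b7, an aldo-keto reductase of lipid aldehydes, had 52, 41 and 37 counts in untreated KO and 54, 52 and 27 after CMC, again with 0 in all WT libraries and at least 48.0-fold higher after CMC (adjusted p = 3.30e-11, edgeR). The close paralogs of Akr1b7 moved in both directions, with Akr1b8 higher by 1.63 and Akr1b3 and Akr1b10 lower, at -0.84 each. Reads that fit several of these paralogs make their counts uncertain.

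Gsta2, an alpha class glutathione transferase and a known NRF2 target, had 21, 24 and 23 counts in untreated KO against 1, 1 and 0 in WT, and 17, 14 and 15 against 0, 0 and 0 after CMC. It was at least 16.6-fold higher after CMC (adjusted p = 1.51e-08, edgeR). Its near-identical neighbour Gsta1 missed the rule by 1 count, with 29 over untreated KO and 2 over WT, and 40 against 5 after CMC, so how the reads divide between both is uncertain. Gsta3 and Gsta4 differed by -0.40 and -0.15 with adjusted p-values of 0.405 and 0.166.

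Cyb5r2, a cytochrome b5 reductase, had 44, 41 and 47 counts in untreated KO against 0 in each WT library, and 30, 53 and 35 against 0, 0 and 1 after CMC (adjusted p = 8.66e-11, edgeR). Cyb5r1 of the same family, which had counts in WT, was higher after CMC by 3.55 on the log2 scale (SE 0.11, adjusted p = 3.25e-22), with 1400 counts over KO against 122 over WT. Cyb5r3 was higher by 0.87 and Cyb5r4 differed by 0.16 with an adjusted p of 0.246. Dhrs9, a short-chain dehydrogenase acting on retinol and steroids, had 15, 18 and 12 counts against 1, 2 and 0, and 15, 15 and 15 against 1, 1 and 2 after CMC. Its CMC difference was 3.41 on the log2 scale (SE 0.48, adjusted p = 4.50e-07, edgeR).

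B4galnt2, the transferase that completes the Sda carbohydrate antigen, had 31, 25 and 27 counts in untreated KO and 27, 24 and 27 after CMC, with 0 in all WT libraries. It was at least 28.1-fold higher after CMC (adjusted p = 2.78e-10, edgeR). Ido1, which starts the breakdown of tryptophan to kynurenine and is a classic interferon-induced gene, had 12, 10 and 20 counts against 0 in each WT library, and 8, 12 and 21 against 2, 0 and 2 after CMC, a ratio of 11.1 (95% counting interval 4.02 to 42.7). In the interferon response list, which holds none of the 38, 11 genes were tested after CMC: 6 rose, 1 fell and 4 were not called, and the median log2 difference was 0.41. Over all tested genes 27.1% were called higher. Ido1 did not pass the filter in the CMC comparison, and its groups did not overlap.

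Secreted ligands were present too. Ereg, epiregulin, a ligand of the EGF receptor family, had 13, 12 and 24 counts in untreated KO against 0 in each WT library, and 19, 11 and 25 against 1, 0 and 0 after CMC. The CMC ratio was 59.5 with a 95% counting interval from 10.2 to 2394 (adjusted p = 6.05e-08, edgeR). Other ligands of these receptors did not share 1 direction: Hbegf was higher by 1.01 (adjusted p = 1.38e-06, edgeR) and Egf was lower, at -2.99 (adjusted p = 9.87e-10, edgeR). Btc and Nrg1 were tested and not called, as were the receptors Egfr and Erbb4. Areg and Tgfa did not pass the filter on low counts.

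Gdf6, a ligand of the bone morphogenetic protein family, had 23, 20 and 15 counts in untreated KO against 1, 0 and 2 in WT. It had 20, 21 and 18 against 2, 4 and 2 after CMC, the largest WT sum of the 38, and differed by 2.86 on the log2 scale (SE 0.40, adjusted p = 4.26e-07, edgeR). Nog, the secreted inhibitor of these ligands, missed the rule by 1 count, with 29 over untreated KO against 0 over WT and 29 against 3 after CMC.

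Kcnj4, the inward rectifier potassium channel Kir2.3, had 27, 22 and 26 counts in untreated KO and 17, 18 and 24 after CMC, with 0 in all WT libraries and at least 21.3-fold higher after CMC (adjusted p = 5.15e-09, edgeR). The inward rectifiers that WT hearts do express went the other way. Kcnj2, the main ventricular one, had 1190 counts over WT and 183 over KO after CMC, a log2 difference of -2.66 (SE 0.10, adjusted p = 1.01e-19), and Kcnj12 and Kcnj3 differed by -2.06 and -2.57. Kcnj11 and Kcnj8, subunits of channels gated by ATP, were lower too, at -0.82 and -0.66. Tmem63c, of a family of channels that respond to membrane tension, had 11, 13 and 7 counts against 1, 1 and 0, and 8, 12 and 10 against 1, 2 and 2 after CMC, a ratio of 6.50 (95% counting interval 2.50 to 21.4). Tmem63b of that family was lower, at -0.60, and Tmem63a had an adjusted p of 0.0803.

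Cdsn, corneodesmosin, which holds cells of the outer skin together, had 30, 48 and 36 counts in untreated KO and 42, 38 and 31 after CMC, with 0 in all WT libraries. The CMC level was at least 40.1-fold higher (adjusted p = 1.63e-11, edgeR). Sh2d6, a protein with an SH2 domain, had 45, 35 and 40 counts against 1, 0 and 0, and 42, 32 and 34 against 0, 0 and 0 after CMC, at least 39.0-fold higher (adjusted p = 2.00e-11, edgeR). Epithelial markers summed over 5 genes to 7.08 to 9.32 per 1000000 in untreated KO against 3.99 to 5.08 in WT, and 8.79 to 11.2 against 2.96 to 9.41 after CMC. Krt18 carried that sum, with 50 counts over untreated KO against 10 over WT and 69 against 11 after CMC, while Krt19 went the other way (10 against 17, and 7 against 31) and Epcam and Cdh1 had at most 2 counts over any group. The part of these cells in the Cdsn counts was not tested.

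Map6d1, which stabilises microtubules, had 13, 13 and 10 counts in untreated KO against 1, 0 and 2, and 9, 16 and 9 against 0, 2 and 1 after CMC, a ratio of 12.3 (95% counting interval 3.86 to 62.4). Map6, its better known relative, was higher by 1.48 after CMC (adjusted p = 1.17e-08). Neuron markers, which WT hearts also held, summed to 50.5 to 56.9 per 1000000 in untreated KO against 16.9 to 17.8 in WT and 54.4 to 60.4 against 11.5 to 16.1 after CMC, where 2 of 3 tested were called higher. Uchl1 (359 counts over untreated KO against 64) and Tubb3 (71 against 18) carried that sum, while Snap25 (2 against 4) and Syp (19 against 28) were not higher and Stmn2 had 44 against 41. The part of these cells in the counts of genes known from brain was not tested. Arhgdig, a GDP dissociation inhibitor known from brain, had 9, 10 and 11 counts against 0, 0 and 1, and 9, 10 and 7 against 0, 0 and 0 after CMC, at least 9.38-fold higher. The widely expressed Arhgdia was higher by 1.13.

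Tbx15, a T-box transcription factor of limb and fat development, had 19, 10 and 10 counts in untreated KO against 0, 1 and 1 in WT, and 5, 15 and 11 against 4, 0 and 1 after CMC. Its CMC groups were separated by 1 count, and the ratio was 6.71 (95% counting interval 2.59 to 22.1). Of the T-box factors that the heart uses, Tbx5 and Tbx18 were lower at -0.82 and -0.99, and Tbx20, with the highest counts of these, differed by -0.11 with an adjusted p of 0.141. Mei4, needed for meiotic double-strand breaks, had 12, 17 and 9 counts in untreated KO and 22, 16 and 19 after CMC with 0 in all WT libraries, at least 20.6-fold higher after CMC (adjusted p = 3.56e-09, edgeR).

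The remaining coding genes have no well established role. 4930438A08Rik (mm10 chr11:58274799-58294289, plus strand), the gene with the C/EBP-ATF element above, had 121, 121 and 115 counts in untreated KO against 0 in each WT library, and 162, 133 and 133 against 0, 0 and 1 after CMC (adjusted p = 9.55e-19, edgeR). Fam227b (mm10 chr2:125983483-126152004, minus strand) had 62, 77 and 75 against 0 in each, and 61, 68 and 60 against 0, 0 and 1 after CMC (adjusted p = 5.02e-14, edgeR). Both were near the top of the 38 by CMC ratio, at 463 (95% counting interval 82.7 to 18343) and 205 (36.3 to 8124), each resting on a single WT count. Tmem252 had 12, 8 and 15 counts against 0, 2 and 1, and 11, 8 and 11 against 1, 0 and 0 after CMC. Glrp1 had 14, 7 and 14 against 2, 0 and 1, and 8, 7 and 9 against 3, 1 and 2 after CMC, and its ratio of 4.33 (95% counting interval 1.72 to 13.0) was the lowest of the 38.

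The 8 noncoding genes ranged from 33 to 97 counts over untreated KO. Gm44317, antisense to Erc1, had 97 counts against 3, and 80 against 3 after CMC, while Erc1 differed by -1.33 on the log2 scale. No source used here gives the strand setting of the counting, so reads of antisense or overlapping partners may be mixed. Gm39465, a lincRNA, and Gm7901, a processed pseudogene, had 63 against 6 and 56 against 2 counts after CMC. 5830418P13Rik, 4833412C05Rik and Gm38575, with 31 to 38 counts over KO after CMC, did not pass the filter.

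**Figure D3:**
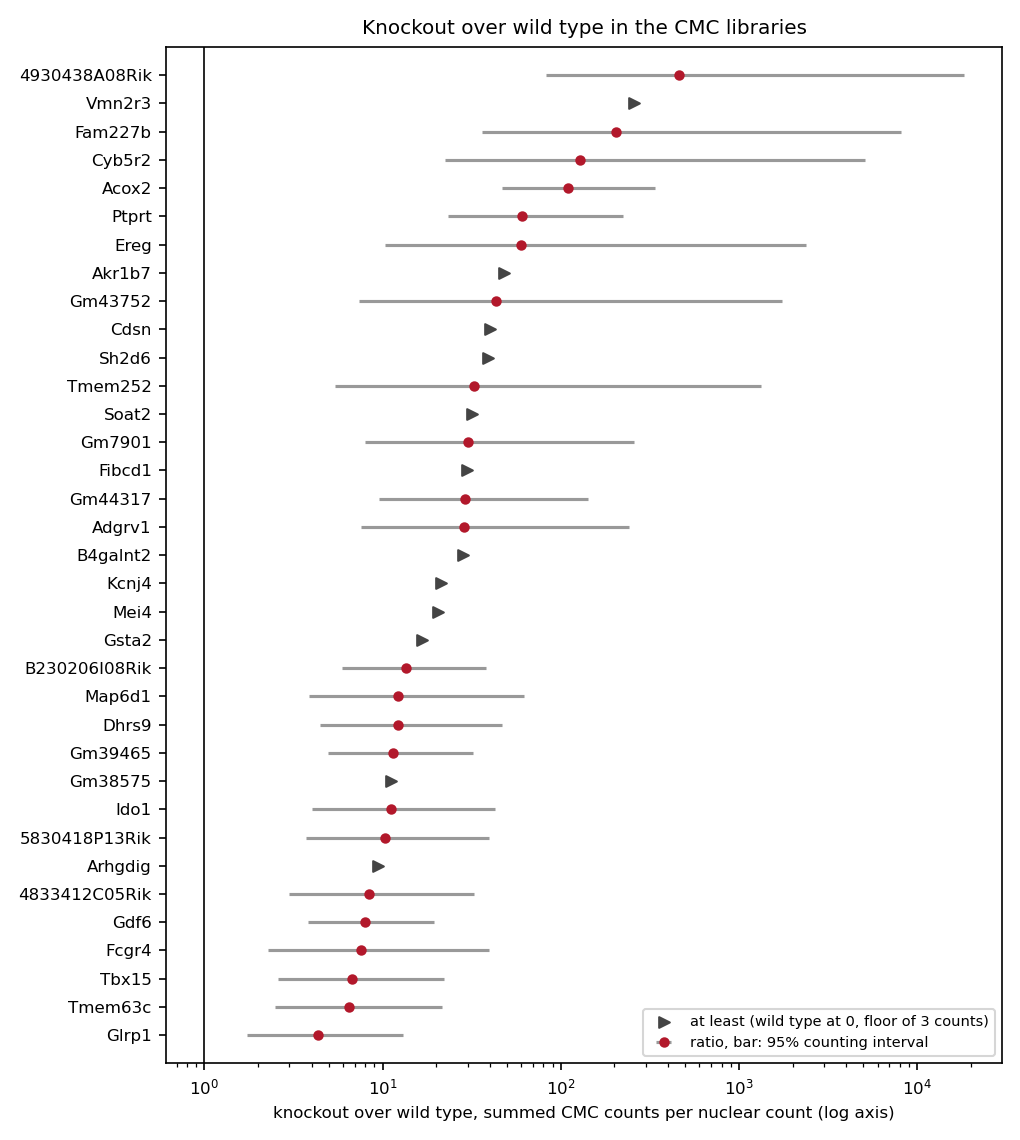
Ratio of KO to WT after CMC for 35 of the 38 genes, from counts summed over 3 libraries per group and scaled to nuclear counts, on a log axis. Points with bars give the ratio and its 95% counting interval. Arrowheads give the ratio to the floor of 3 counts where WT was at 0, which is not the limit of a 95% interval. Ratios run from 4.33 (Glrp1) to 463 (4930438A08Rik), and no interval reaches 1.

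Some of the 38 genes have close neighbours that WT hearts express. A tested gene overlapped or lay within 5000 bases of 13 of the 38, in 18 pairs, and after CMC 6 of these neighbours were called higher, 6 lower and 6 not called, against 54.3% of all tested genes called in either direction. The largest difference was that of Dlg2, a synaptic scaffold gene that contains B230206I08Rik on the same strand. Dlg2 had 811, 741 and 734 counts in untreated KO against 19, 21 and 20 in WT, and 670, 687 and 611 against 24, 24 and 19 after CMC, a log2 difference of 4.90 (SE 0.12, adjusted p = 8.48e-25, edgeR). B230206I08Rik itself had 27, 10 and 28 against 1, 1 and 1, and 33, 26 and 16 against 5, 1 and 0. Whether its reads are those of Dlg2 transcripts cannot be told apart from gene counts.

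Kctd6, whose end faces that of Acox2 across 1943 bases, had 249, 231 and 213 counts in untreated KO against 26, 27 and 32, and 224, 212 and 197 against 26, 28 and 25 after CMC. Its log2 difference of 3.03 (SE 0.13, adjusted p = 2.08e-18, edgeR) was smaller than that of Acox2. Dtwd1, which shares the 136-base start region printed above with Fam227b, was higher by 1.27 (SE 0.28, adjusted p = 0.00034), and Galk2, which overlaps Fam227b on the other strand, by 0.69. Dhx37, head to head with Gm43752 across 953 bases, was higher by 2.02. Igfbp6, 1014 bases upstream of Soat2, was lower at -1.30, and Ppfibp2, overlapping Cyb5r2, at -0.44.

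**Figure D4:**
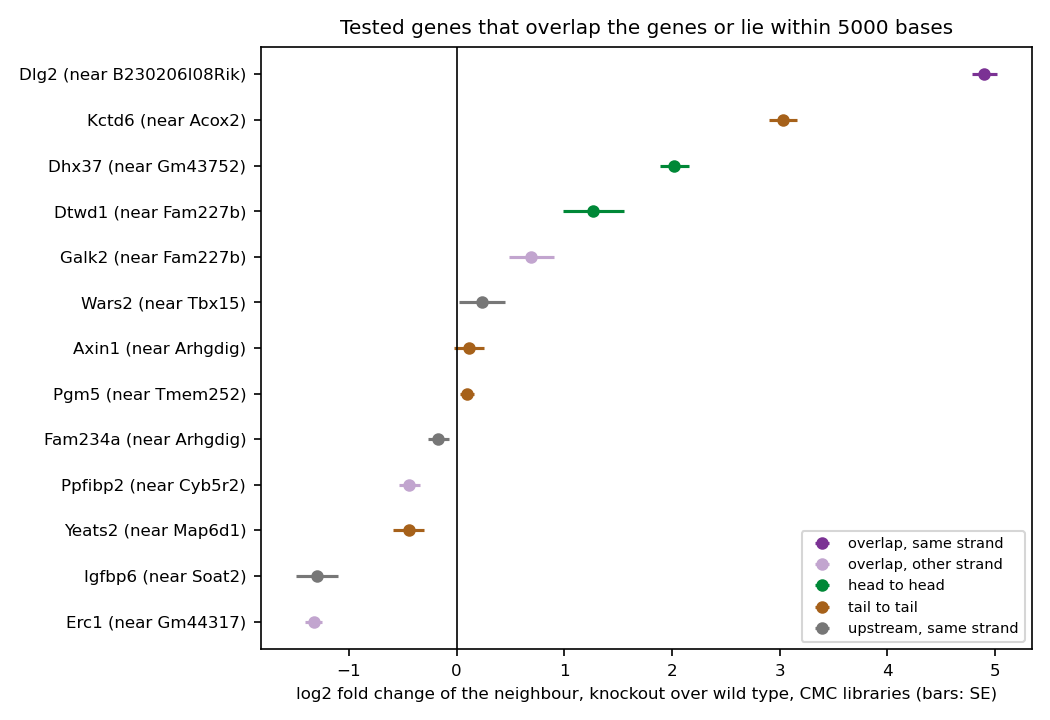
Log2 difference of KO against WT after CMC for 13 tested neighbours of 11 of the 38 genes, coloured by position and strand relative to the gene, with bars for the SE. Dlg2 (4.90) and Kctd6 (3.03) are the highest and Erc1 (-1.33), antisense to Gm44317, the lowest.

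Of 10 pathway lists, 3 held any of the 38 genes, and 34 of the 38 were in none. Soat2 and Cdsn belong to the list of integrated stress response targets, of whose other 46 genes 45 were tested after CMC, 43 higher, 1 lower (Vldlr, at -1.73) and 1 not called, with a median of 2.93 on the log2 scale against -0.01 over all tested genes. The largest of these were Gdf15, Slc7a3, Slc7a11 and Adm2, themselves at or near 0 in WT, as was Fgf21 of the same list. Such genes pass the filter through their KO counts and had to differ, in this list and in others that hold them. Over all tested genes 27.1% were called higher, the share to set beside each list here and below. Gsta2 belongs to the NRF2 targets, of which 10 of 15 tested others were higher, 2 lower and 3 not called, median 0.98, with Slc7a11, Hmox1 (4.11), Srxn1 (3.28) and Txnrd1 (2.34) leading. Ereg belongs to the secreted hormones and growth factors, of which 16 of 26 tested were higher, 4 lower and 6 not called, median 0.80, led by Ostn, Gdf15, Adm2 and Fgf21.

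Lists without any of the 38 were heat shock genes with 11 of 12 higher, 0 lower and a median of 1.27, p53 targets with 12 of 19 higher, 3 lower and 0.99, and bZIP factors with 23 of 34 higher, 6 lower and 0.91. Cell cycle genes had 5 of 8 higher, 1 lower and 0.55, the unfolded protein response of the endoplasmic reticulum 9 of 15 higher, 1 lower and 0.26, and fetal heart genes 7 of 15 higher, 8 lower and -0.43. Of the ATF, CREB and C/EBP genes in the bZIP list, Atf3 (5.73), Ddit3 (3.51), Atf4 (3.09), Atf5 (2.57) and Cebpb (1.69) were higher. So were Cebpg (1.45), Cebpd (1.06), Atf6 (1.04) and Atf1 (0.44). Cebpa (-0.72), Creb1 (-0.47) and Atf7 (-0.24) were lower. Atf2 differed by -0.22 with an adjusted p of 0.0754 (edgeR), and Crem, Creb3l1 and Creb3l2 were not called. The NRF2 gene Nfe2l2 was higher by 1.10.

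The limits of the rule divide genes of much the same counts. Just inside the KO limit lay Arhgdig (30 counts), Tmem63c (31) and Gm38575 (33). Gm38575, a processed transcript, had 11, 16 and 6 counts in untreated KO and 7, 12 and 12 after CMC, with 0 in all WT libraries. At the WT limit Acox2, Ptprt, Gm44317 and B230206I08Rik had 3 counts. Gm44317 had 21, 45 and 31 counts in untreated KO against 2, 1 and 0, and 25, 32 and 23 against 0, 0 and 3 after CMC.

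Just outside the KO limit, with at most 29 counts, lay Dthd1, Gsta1, Myh4, Nog and Gm45201. Dthd1 had 10, 13 and 6 counts in untreated KO and 13, 16 and 12 after CMC, with 0 in all WT libraries. Gsta1 had 8, 8 and 13 against 0, 1 and 1, and 24, 7 and 9 against 2, 0 and 3 after CMC. Nog had 15, 12 and 2 against 0, 0 and 0, and 8, 13 and 8 against 3, 0 and 0 after CMC. In each of these the KO libraries exceeded the WT libraries in both treatments. Myh4, a fast myosin of skeletal muscle, had 12, 11 and 6 against 0, 0 and 0, and 12, 4 and 13 against 0, 1 and 1 after CMC. Gm45201 had 4, 13 and 11 against 1, 1 and 0, and 21, 14 and 15 against 1, 0 and 0 after CMC.

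Just outside the WT limit, with 4 counts over untreated WT, lay Nrip3, Gbp10, Igfbp2, Ckap2 and Sptbn4. Nrip3, a gene of unsettled role, had 35, 47 and 41 counts in untreated KO against 1, 3 and 0, and 32, 39 and 26 against 0, 0 and 2 after CMC. Gbp10, a guanylate-binding protein of the interferon response, had 18, 12 and 23 against 1, 2 and 1, and 9, 10 and 29 against 2, 1 and 7 after CMC. Igfbp2, which binds insulin-like growth factors, had 18, 22 and 9 against 0, 2 and 2, and 19, 24 and 16 against 1, 1 and 1 after CMC. These 3 genes, too, had KO libraries above all WT libraries. Ckap2, a spindle protein of dividing cells, had 23, 15 and 11 against 2, 1 and 1, and 15, 9 and 9 against 2, 4 and 1 after CMC. Sptbn4, a spectrin of axons, had 13, 10 and 13 against 3, 0 and 1, and 16, 7 and 14 against 1, 3 and 2 after CMC.

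Hepatocyte markers, measured because Acox2 and Soat2 are best known from liver, summed to at most 0.745 per 1000000 nuclear counts in any library, with 4 of 5 at 0 in untreated KO.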

How the data were processed

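Total RNA of 12 mouse heart libraries was analysed from raw read counts per gene that the authors deposited in 2 tables, untreated and CMC. The submitters' processing notes name mm10, featureCounts 1.5.1, HISAT2 2.0.5, DESeq2 1.16.1 and SAMtools 1.5 without roles, and no source used here gives a strand setting. Gene types came from GENCODE M21. Per-base mitochondrial tables, ontology tables and the authors' own test table were not used here.

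The genes and the lists were chosen with earlier results of these data known, and the relatives of single genes after the 38 were known. KO and WT after CMC were compared over 6 libraries with filterByExpr, TMM and the edgeR 4.0.16 quasi-likelihood test in R 4.3.3. Benjamini-Hochberg adjustment ran over all 12144 tested genes, called at 0.05. On simulated data the test recovered 97.5% of 200 genes changed 4-fold, with 4.88% of calls false. The simulation changed far fewer genes than were called here and set none near 0 in WT, so it gives no error rate for the 38. Counts given per gene are unscaled; ratios are scaled to nuclear counts. A group at 0 has a floor of 3 counts. The "at least" values set against that floor take the KO counts as exact and are not limits of a 95% interval. Other ratios have exact 95% intervals (scipy 1.17.1), which cover counting error alone. DESeq2 1.42.0 was an alternative, as were other scalings, filters, limits of the rule and leaving out each library. By the rule for named genes, counts in each library were given for the 20 most abundant of the 38 apart from predicted genes (Gm or Rik symbols), for those not called after CMC and for the 5 genes nearest each limit on either side. Up to 4 genes per list were named by largest change, with Vldlr and the bZIP genes named beyond that. Values of 3 of the 38 genes and of some other genes are not reported here.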

Additional observations from a re-analysis of the deposited data

How the results depend on the processing

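Other limits changed how many genes the rule takes, in place of 38. It took 14 with 0 counts allowed in WT, 54 with 6 allowed, 90 with 15 needed in KO and 18 with 60 needed. With 1 untreated library left out it took 38 to 42. Of the 38, 23 met the rule again after CMC. That number was 11 with 0 counts allowed in WT, 34 with 6 allowed, 25 with 15 needed in KO and 11 with 60 needed. With 1 CMC library left out it was 21 to 28. The 25 tested and called higher became 38 of 38 without the filter on low counts (largest adjusted p 0.00513, edgeR), against 3630 of 23165 tested genes. With a filter on the mean of all libraries they became 16 of 16, against 3201 of 11753 tested genes. With a library left out they became 25 to 31, as the filter then kept other numbers of genes, against 3061 to 3268 of 12416 to 12535 tested genes. DESeq2 called 37 of 38 higher, against 2566 of 15529 tested genes, and Glrp1 had an adjusted p of 0.0634 there. As above, these numbers are a description of genes chosen for being near 0 in WT. Over all tested genes 6591 were called, 4891 by DESeq2 and 6073 to 6546 with a library left out. Same-numbered KO and WT libraries after CMC did not deviate together (r = -0.0217, -0.0306 and -0.0843), which does not exclude that the numbers pair them. With the replicate number as a block 6430 genes and 25 of 25 were called. At 2683284 to 3187748 nuclear counts per library, a gene at 0 over WT may still be transcribed below the floor of 3 counts.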

Other observations

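The same limits turned round, at most 3 counts over KO and at least 30 over WT, took 23 autosomal genes in the untreated libraries and 24 after CMC, of which 7 were in both sets. The most abundant of them was Clcn1, the chloride channel of skeletal muscle, with 36, 54 and 48 counts in untreated WT against 3, 0 and 0 in KO, and 44, 39 and 31 against 2, 4 and 2 after CMC. Others were Bmp3, a ligand of the bone morphogenetic protein family, with 44 counts over untreated WT against 2 and 41 against 8 after CMC, Dbh, which makes noradrenaline, with 39 against 2 and 44 against 5, and Lgi1, a secreted protein of synapses, with 47 against 2 and 43 against 2. Of these 4, Lgi1 alone met the limits again after CMC. These genes were named after their values were seen.

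After CMC, 8 autosomal genes met the limits that were neither among the 38 nor among those left out by name: Igfbp2, Slc26a7, Dthd1, Gm45201, Nrip3, Rad51c, Ighg1 and Kctd16. Nrip3 had 97 counts over KO against 2 and Igfbp2, an insulin-like growth factor binding protein, 59 against 3. Ighg1, an immunoglobulin heavy chain gene, had 28 counts over untreated KO and 36 after CMC with 0 in all WT libraries, while the sum of the 5 B cell markers was lower in KO, at 7.65 to 16.1 per 1000000 nuclear counts against 21.6 to 25.8 untreated and 10.4 to 18.9 against 24.0 to 34.2 after CMC. On the X chromosome Gm6806, a processed pseudogene, met the limits too, with 50 counts against 0 untreated and 49 against 1 after CMC.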
